A study of Mus musculus with 8 samples.

Results

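A set of 10 genes of IL-22 and STAT3 signalling is described here in purified mouse Paneth cells, which secrete antimicrobial peptides from the crypt base of the small intestine. They are the receptor chains Il22ra1, Il10rb, Il6st and Osmr, the kinase Jak1, the transcription factor Stat3, and the feedback inhibitors Socs3, Socs1, Socs2 and Cish. The 10 symbols were matched through GENCODE to 10 of the 55414 Ensembl IDs of a table of counts per gene. They were chosen with the TG over WT differences of these same libraries in view, so those differences are given as a description. Where calls by edgeR are counted for them in that contrast, nothing is read from the count.

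The study compared 4 libraries from transgenic mice of the genotype DT TG, in which Paneth cells express diphtheria toxin, with 4 libraries from wild type mice. These groups are called TG and WT, and no further allele or treatment is labelled in either of them. Cells of the small intestine had been sorted by FACS, and the Paneth cell fraction was taken for sequencing. The study describes its Paneth cell sorts as taken from C57BL/6J mice, and the series as one of depletion of mature Paneth cells. The promoter that drives the toxin, and the age and sex of the animals, are not given in the labels, and neither is whether the sorted TG cells had themselves made the toxin.

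IL-22 is a cytokine made by lymphoid cells of the gut, and it acts on epithelial cells through a receptor of the chains IL22RA1 and IL10RB. The receptor activates the kinases JAK1 and TYK2, which phosphorylate STAT3, and STAT3 then enters the nucleus and activates genes of epithelial defence and repair, Reg3g and Reg3b among them. Cytokines of the IL-6 family reach STAT3 through gp130, the product of Il6st, and SOCS3 is itself induced by STAT3 and blocks further signalling at gp130 and the JAKs.

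STAT dimers bind the palindrome TTCNNNGAA, so the proximal promoters of the 2 SOCS family genes in which it was found are shown, with the palindrome in capitals. The sequences are from RefSeq on the build GRCm38.p6, 5′ to 3′ on the strand of the gene. The Socs3 stretch is chr11:117969367-117969616, minus strand, and ends at the base before the annotated start. The Cish stretch is chr9:107296409-107296683, plus strand, and runs to base 25 of the transcript.
Socs3: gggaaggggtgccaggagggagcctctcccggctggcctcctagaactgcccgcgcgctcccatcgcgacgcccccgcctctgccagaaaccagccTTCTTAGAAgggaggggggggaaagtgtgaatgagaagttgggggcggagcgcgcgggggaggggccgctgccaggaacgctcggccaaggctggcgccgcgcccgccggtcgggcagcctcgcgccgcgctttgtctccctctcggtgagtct
Cish: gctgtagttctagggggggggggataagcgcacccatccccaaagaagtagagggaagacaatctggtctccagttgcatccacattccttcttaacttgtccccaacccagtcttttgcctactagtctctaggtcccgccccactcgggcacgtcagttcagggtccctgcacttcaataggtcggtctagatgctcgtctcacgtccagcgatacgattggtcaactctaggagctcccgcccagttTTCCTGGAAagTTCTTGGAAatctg
Counted from the start base as 0, the match began at -154 in Socs3 and at 0 and 11 in Cish. Over windows of 250 bases before to 50 after the start, which read the same palindrome on both strands, 2 of the 8 members in the table held a match, and 2726 of all 32851 promoters (8.3%) did. Of 68 further pathway genes with a promoter listed, 7 held a match. Among these were 26 target genes of IL-22 or STAT3, of which 2 held one. Socs1, Stat3, Il22ra1, Il6st, Osmr and Jak1 had no match in this window, and Socs2 and Il10rb were not in the table. A match of these letters is a description and not a binding site.

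Total counts ranged from 13107397 to 16218434 per library, and 11929 genes passed the filter on low counts, 9 of the 10 members among them. Levels are given as CPM, the count of a gene relative to all counts of its library, on library sizes scaled by TMM factors. TG replicates 1 and 2 and WT replicates 1 and 2 had 0 counts from Y-linked genes, and the other 4 libraries had 897 to 1564, so that each group held 2 libraries of each kind. Of the 7 Paneth cell markers, 7 were tested and together took 370500 to 455000 CPM in TG and 351600 to 530400 CPM in WT. Markers of immune and stromal cells were near 0, with at most 10 counts over all libraries for 8 of 12 and 6 of 6 genes.

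Of the 4 receptor chains, 3 passed the filter on low counts. Il22ra1 (ENSMUSG00000037157, chromosome 4, 135455428 to 135479451, plus strand, GRCm39), the chain that gives the IL-22 receptor its specificity, had 58.6, 60.2, 51.7 and 53.4 CPM in TG replicates 1 to 4. It had 49.2, 55.4, 37.2 and 49.5 CPM in WT replicates 1 to 4, and the groups overlapped. Its log2 fold change, TG over WT, was 0.23 ± 0.11 (SE, n = 4 each), and WT replicate 3 was the lowest library. Without it the value was 0.12. Il10rb (ENSMUSG00000022969, chromosome 16, 91203012 to 91224600, plus strand), the second chain, which the receptors for IL-10 and type III interferons share, had 38.4 to 40.4 CPM in TG and 35.1 to 49.5 CPM in WT. Its log2 fold change was -0.17 ± 0.10 (SE, n = 4 each), and -0.28 without WT replicate 3, the 1 fit of 8 that left out a library in which edgeR called it lower. A same-strand gene model that overlaps 27.88% of its exon bases had 0 counts.

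Il6st (ENSMUSG00000021756, chromosome 13, 112600604 to 112646620, plus strand), which encodes gp130, had 41.1, 42.6, 40.9 and 41.0 CPM in TG. In WT it had 46.4, 57.9, 50.1 and 51.3 CPM. Each TG library was thus below each WT library, and the log2 fold change was -0.31 ± 0.09 (SE, n = 4 each). When libraries were scaled by total counts only it was -0.20 ± 0.13, and the median over all genes tested moved from 0.01 to 0.12 on the log2 scale. Osmr (ENSMUSG00000022146, chromosome 15, 6843053 to 6904450, minus strand), the chain that pairs with gp130 for oncostatin M, did not pass the filter. It had 0, 0, 3 and 0 counts in TG and 10, 21, 1 and 0 counts in WT. Its counts thus came almost entirely from WT replicates 1 and 2.

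Jak1 (ENSMUSG00000028530, chromosome 4, 101008838 to 101122487, minus strand), the kinase bound to the receptor chains, differed between the groups by less than the spread of the libraries. It had 111.4 to 125.8 CPM in TG and 110.0 to 128.4 CPM in WT, with a log2 fold change of -0.03 ± 0.08 (SE, n = 4 each). Exons of Raver2 on the opposite strand overlap 18.01% of its exon bases, and Raver2 had 153 counts over all 8 libraries.

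Stat3 (ENSMUSG00000004040, chromosome 11, 100775924 to 100830450, minus strand) was lower in TG. The TG libraries had 78.7, 67.1, 101.1 and 73.4 CPM, and the WT libraries had 163.7, 141.6, 125.2 and 121.0 CPM. The groups did not overlap, and the distance between the highest TG library, replicate 3, and the lowest WT library, replicate 4, was smaller than the range within either group. The log2 fold change was -0.78 ± 0.13 (SE, n = 4 each), a level in WT 1.72 times that in TG. It was -0.92 to -0.69 when any 1 library was left out. In bulk RNA, fewer cells of a type and less RNA per cell cannot be told apart, and this holds for each difference given here.

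Socs3 (ENSMUSG00000053113, chromosome 11, 117856905 to 117860898, minus strand) had the largest log2 fold change among the 9 tested members. It had 8.95, 6.90, 7.73 and 6.39 CPM in TG, from 84 to 143 counts per library. In WT it had 59.9, 58.8, 17.6 and 17.9 CPM, from 241 to 845 counts per library. The TG libraries were close together, with a coefficient of variation of 14.9%, while the WT libraries formed 2 pairs, with a coefficient of variation of 62.3%. All TG libraries were below all WT libraries. The log2 fold change was -2.35 ± 0.53 (SE, n = 4 each), a level in WT 5.11 times that in TG, and it was -2.60 to -2.07 when any 1 library was left out. Within the libraries without Y-linked counts it was -2.90 ± 0.17, and within those with Y-linked counts -1.32 ± 0.17 (SE, 2 libraries a group).

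Of the other 3 SOCS family members, 0 had TG libraries all below the WT libraries. Socs2 (ENSMUSG00000020027, chromosome 10, 95219523 to 95253929, minus strand), an inhibitor of growth hormone signalling, had 55.9, 45.4, 43.7 and 33.7 CPM in TG and 35.2, 36.8, 28.4 and 36.7 CPM in WT. TG replicate 4 lay within the WT range, and the log2 fold change was 0.38 ± 0.14 (SE, n = 4 each). Cish (ENSMUSG00000032578, chromosome 9, 107173225 to 107179983, plus strand), an inhibitor best known as a target of STAT5, had 7.45, 6.54, 4.35 and 2.59 CPM in TG and 6.08, 7.31, 3.08 and 4.69 CPM in WT. Its log2 fold change was -0.01 ± 0.32 (SE, n = 4 each). Socs1 (ENSMUSG00000038037, chromosome 16, 10600104 to 10603875, minus strand), an inhibitor of interferon signalling, was barely expressed, with 7 to 17 counts in TG and 8 to 11 counts in WT. Its log2 fold change was 0.16 ± 0.36 (SE, n = 4 each). LncRNA models on the opposite strand overlap exons of all 4 SOCS family genes, 16.81% of the exon bases of Cish in 1 case, and the strand setting of the counting is not given.

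**Figure D1:**
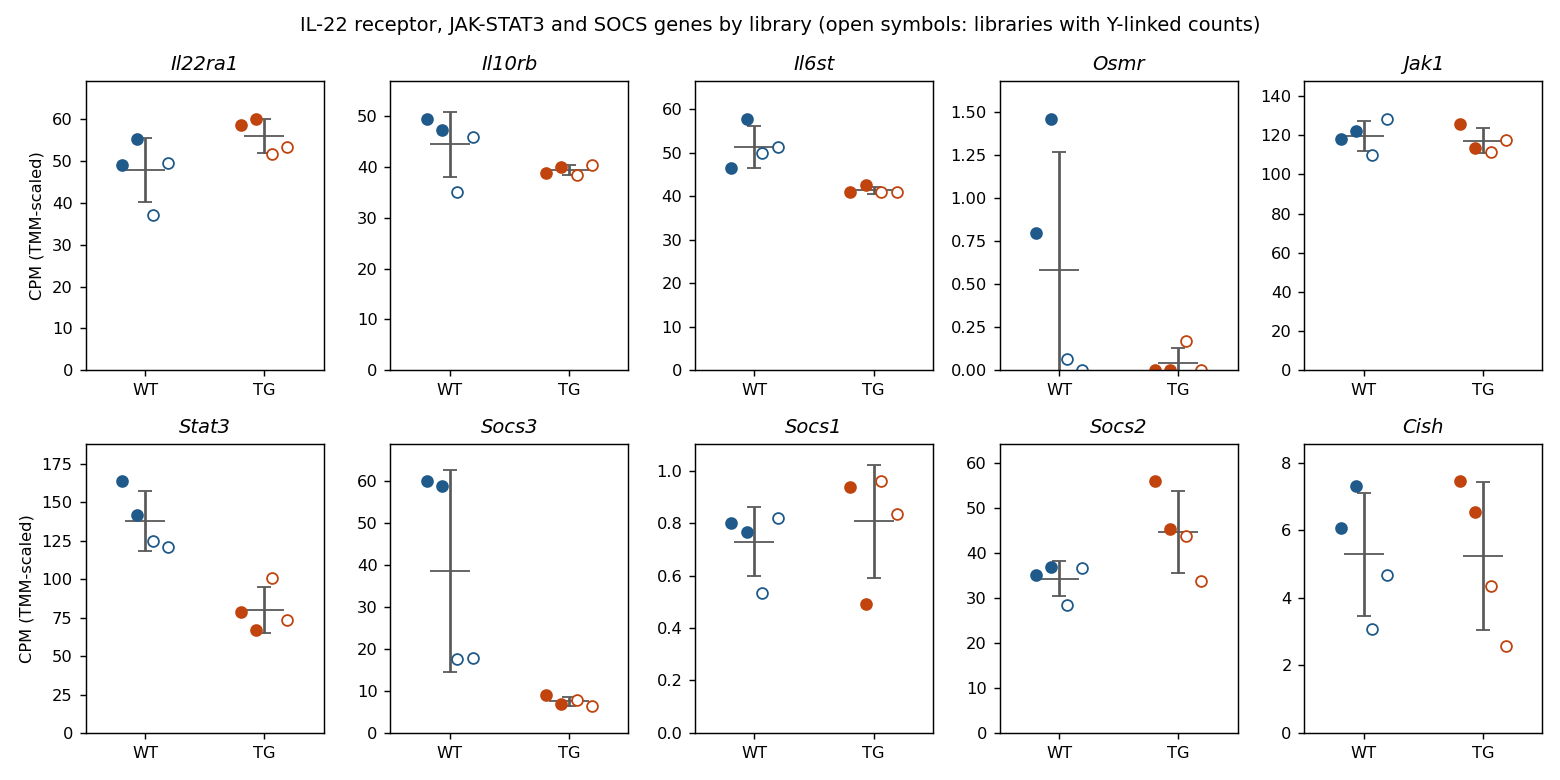
CPM on TMM-scaled library sizes (linear axes from 0) of the 10 members in the 4 WT and 4 TG libraries. Circles are libraries, open where Y-linked counts were present, and bars are the mean and SD, clipped at 0 for Osmr. Socs3, Stat3 and Il6st are the members whose TG libraries all lie below the WT libraries.

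Of the 9 members tested with edgeR at a Benjamini-Hochberg adjusted threshold of 0.05, 3 were called lower in TG, Socs3, Stat3 and Il6st, and 0 were called higher. DESeq2 called 3 lower and limma voom 2, without Socs3, and neither called any higher. Socs3 was called in only 3 of 8 edgeR fits that left out 1 library, not in those without any 1 of the 4 TG libraries or WT replicate 1. Il6st was called in 5 of 8, not without TG replicate 1, 2 or 3, and it was called neither with total counts nor within either kind of library by Y-linked counts. Stat3 was called in 8 of 8, and not within the libraries with Y-linked counts alone. Socs2 was the 1 member higher at an unadjusted p below 0.05, and edgeR called it with no filter on low counts, with a term for Y-linked counts and without TG replicate 4. Over all genes tested, 9.65% were called lower and 8.26% higher. The same 3 members had CPM ranges that did not overlap, as had 22% of all genes tested. The members were selected on the same contrast, so these counts are no result about them. The median log2 fold change of the 9 members was -0.03, against 0.01 over all genes tested.

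The remaining genes of the pathway, 94 outside the members, were drawn up by role, and 63 of them could be tested. Of these, 14 were called lower and 4 higher in TG, where 9.65% and 8.26% of all genes tested were. The list of IL-22 and STAT3 target genes gave 10 of the 14 and 1 of the 4. When libraries were scaled by total counts only, 5 pathway genes were lower and 3 higher. The 4 higher genes became 1 without TG replicate 1 or TG replicate 2 and 2 without WT replicate 3. Within the libraries with Y-linked counts alone, 2 were lower and 1 was higher, and within those without them 13 were lower and 2 higher. The lists were made with earlier results for some of their genes known, Reg3g, Retnlb, Nos2 and Fut2 among them, and their counts are not independent evidence of a direction.

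Ligands were nearly absent from the sorted cells. Of 13 cytokine genes, 9 had 0 counts in all libraries, Il22, Il10, Il6 and Osm among them. Only Lif, a cytokine of the IL-6 family, passed the filter. It had 2.69, 2.11, 1.52 and 2.43 CPM in TG and 1.36, 1.67, 1.47 and 1.27 CPM in WT, a log2 fold change of 0.59 ± 0.27 (SE, n = 4 each) that was not called (edgeR adjusted p = 0.137). Il11 and Il23a, at a mean of 0.308 and 0.0366 CPM in TG and 0.290 and 0.0174 CPM in WT, were too low to test.

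Of 23 further receptor genes, 16 were tested, with 3 higher and 1 lower in TG. Il6ra, the chain that binds IL-6 and passes the signal to gp130, rose while gp130 transcripts were lower. It had 16.4, 20.6, 14.5 and 19.0 CPM in TG and 13.1, 11.1, 6.16 and 8.26 CPM in WT. Its log2 fold change was 0.87 ± 0.20 (SE, n = 4 each), with an edgeR adjusted p of 0.0123, and it was called without each library in turn but not within the libraries without Y-linked counts alone (edgeR adjusted p = 0.0586). The hormone receptors Prlr and Ghr, which signal through JAK2 and STAT5, had log2 fold changes of 0.58 ± 0.15 and 0.42 ± 0.13 (SE, n = 4 each), with edgeR adjusted p of 0.0162 and 0.0350. Prlr was no longer called by edgeR without TG replicate 1 or without TG replicate 2 (adjusted p = 0.0581 and 0.0622), nor within the libraries with Y-linked counts alone, at 0.18 ± 0.15 (SE, adjusted p = 0.571), against 1.01 ± 0.16 within those without. Ghr was called in only 3 of 8 fits that left out 1 library, with adjusted p of 0.0580 to 0.113 in those without TG replicate 1, TG replicate 2, WT replicate 1, WT replicate 2 or WT replicate 3. Within the libraries with Y-linked counts alone, Ghr had 0.22 ± 0.17 (SE, edgeR adjusted p = 0.550), against 0.61 ± 0.13 within those without.

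Ifnar1, a chain of the type I interferon receptor, fell by 0.37 ± 0.09 on the log2 scale (SE, n = 4 each, edgeR adjusted p = 0.0124), from 29.7 to 35.2 CPM in WT to 23.1 to 25.8 CPM in TG. Ifnar1 was no longer called with total counts (edgeR adjusted p = 0.243), or within the libraries without or with Y-linked counts alone (0.103 and 0.209), where its log2 fold changes were -0.40 ± 0.14 and -0.33 ± 0.13 (SE, 2 libraries a group). The 3 most abundant receptor genes that were not called were Il13ra1, Ifngr1 and Ifngr2, chains for IL-13 and interferon gamma. Their log2 fold changes were -0.25 ± 0.09, 0.24 ± 0.10 and 0.08 ± 0.10 (SE, n = 4 each). Il13ra1 was called by DESeq2 and by limma voom (adjusted p = 0.0495 and 0.0438), and by edgeR without WT replicate 3 (adjusted p = 0.0400).

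Among 9 further kinases and STATs, 8 were tested and 2 fell in TG. Jak3, the kinase of the common gamma chain receptors, had 4.88, 4.50, 7.28 and 5.25 CPM in TG and 12.6, 15.3, 9.04 and 7.59 CPM in WT. Its log2 fold change was -1.01 ± 0.22 (SE, n = 4 each, edgeR adjusted p = 0.00838). It was called without each library in turn. It was not called within the libraries with Y-linked counts alone, at -0.39 ± 0.23 (SE, edgeR adjusted p = 0.411), against -1.57 ± 0.22 within those without. Tyk2, the second kinase of the IL-22 receptor, and Jak2 were not called. Tyk2 had a log2 fold change of 0.13 ± 0.10 and Jak2 one of -0.19 ± 0.09, and Stat6, the STAT of IL-4 signalling, had 0.04 ± 0.08 (SE, n = 4 each).

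All 13 further feedback regulators were tested, and 1 was called. Ptpn11, which encodes the phosphatase SHP2 that binds activated gp130, fell from 70.9 to 79.3 CPM in WT to 55.3 to 61.6 CPM in TG. The log2 fold change was -0.32 ± 0.08 (SE, n = 4 each, edgeR adjusted p = 0.0148), and -0.20 ± 0.12 with total counts, where it was not called (edgeR adjusted p = 0.291). Ptpn11 was also not called within the libraries without or with Y-linked counts alone (edgeR adjusted p = 0.248 and 0.111), with log2 fold changes of -0.25 ± 0.13 and -0.38 ± 0.11 (SE). Ptpn1, a phosphatase that acts on JAK2 and TYK2, had a log2 fold change of -0.31 ± 0.10 and narrowly missed the threshold (SE, n = 4 each, edgeR adjusted p = 0.0531). It was called by limma voom (adjusted p = 0.0455), and by edgeR with no filter on low counts, within the libraries without Y-linked counts and without WT replicate 3 (adjusted p = 0.0280, 0.0343 and 0.0386). Within the libraries with Y-linked counts, Ptpn1 had -0.06 ± 0.12 and was not called, against -0.56 ± 0.15 within those without (SE). The SOCS gene Socs7 and the PIAS gene Pias2 had log2 fold changes of 0.11 ± 0.10 and 0.07 ± 0.10 (SE, n = 4 each).

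Of 36 genes known as targets of IL-22 or STAT3, 25 were tested, with 10 lower and 1 higher in TG, where 9.65% and 8.26% of all genes tested were. The direction of some of them was known when the list was made. The median log2 fold change of those tested was -0.41, against 0.01 over all genes. Reg3g, which encodes a lectin that kills Gram-positive bacteria, had 616, 654, 614 and 429 CPM in TG and 6099, 4308, 1617 and 3560 CPM in WT. Retnlb, which encodes the antibacterial protein RELMbeta, had 3.57, 2.67, 5.08 and 2.21 CPM in TG and 69.9, 79.6, 31.2 and 29.9 CPM in WT. As with Socs3, the lowest WT library was still above the highest TG library in both. Their log2 fold changes were -2.75 ± 0.38 and -3.93 ± 0.49 (SE, n = 4 each), with edgeR adjusted p of 0.00347 and 0.00384.

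Reg3b, the closest relative of Reg3g, had 112.1, 92.5, 97.5 and 69.5 CPM in TG and 558, 420.3, 85.5 and 263.2 CPM in WT. WT replicate 3 alone lay in the TG range. The log2 fold change of -1.84 ± 0.56 (SE, n = 4 each) was not called by edgeR (adjusted p = 0.0724), and it was called by DESeq2 (adjusted p = 0.00666), within the libraries without Y-linked counts (edgeR adjusted p = 2.03e-05) and without WT replicate 3 (edgeR adjusted p = 0.00329). Within the libraries with Y-linked counts, Reg3b had -1.05 ± 0.76 and was not called, against -2.26 ± 0.18 within those without (SE).

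The transcription regulators Bcl3 and Cebpb were lower at smaller sizes. Bcl3, which encodes a nuclear cofactor of NF-kB, had 16.3, 15.6, 15.7 and 18.3 CPM in TG and 38.6, 33.3, 22.4 and 23.1 CPM in WT. It fell by 0.83 ± 0.16 on the log2 scale (SE, n = 4 each, edgeR adjusted p = 0.00538), and it was called without each library in turn but not within the libraries with Y-linked counts alone (edgeR adjusted p = 0.155). Cebpb, which encodes a factor of the acute phase response, fell by 0.68 ± 0.16 (SE, n = 4 each, edgeR adjusted p = 0.0125), from 6.95 to 7.96 CPM in WT to 4.00 to 6.05 CPM in TG, and it missed the threshold without TG replicate 1 (edgeR adjusted p = 0.0515).

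Of the targets, Nos2 and Duox2 were called lower as well. Nos2, the inducible nitric oxide synthase, had a log2 fold change of -0.95 ± 0.22, and Duox2, an oxidase that releases hydrogen peroxide, had -0.47 ± 0.12 (SE, n = 4 each), with edgeR adjusted p of 0.0105 and 0.0175. Neither was called with total counts (edgeR adjusted p = 0.0597 and 0.155), nor was Cebpb (0.0965). Within the libraries without Y-linked counts alone, Nos2 and Cebpb were not called (edgeR adjusted p = 0.0638 and 0.226), and within those with them Nos2, Duox2 and Cebpb were not (0.160, 0.224 and 0.0874). The log2 fold changes in these fits were -0.89 ± 0.28 and -1.02 ± 0.34 for Nos2, -0.53 ± 0.26 and -0.82 ± 0.22 for Cebpb, and -0.32 ± 0.13 for Duox2 (SE, 2 libraries a group). Fut2, Duoxa2, Nfkbiz and Cebpd made up the rest of the 10, and Myc was the 1 target that was higher, with 40.8 to 49.0 CPM in TG and 30.0 to 39.3 CPM in WT. These 5 were named after their values were seen. Pla2g2a, an antibacterial phospholipase, and Dmbt1, a mucosal scavenger receptor, were abundant and not called, with log2 fold changes of -0.45 ± 0.15 and -0.41 ± 0.20 (SE, n = 4 each, edgeR adjusted p = 0.0524 and 0.180). Both were called with no filter on low counts (edgeR adjusted p = 0.000469 and 0.0155), Dmbt1 also with a replicate block (edgeR adjusted p = 0.0201), and Pla2g2a also by DESeq2 (adjusted p = 0.0210), within the libraries without Y-linked counts and without TG replicate 4 or WT replicate 3 (edgeR adjusted p = 0.0153, 0.0482 and 0.0364). Within the libraries with Y-linked counts, Pla2g2a had -0.06 ± 0.14 and was not called, against -0.84 ± 0.18 within those without (SE).

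Markers of other cells moved with some of these genes. Of 12 enterocyte markers, 6 were called higher in TG and 0 lower, and their summed level was 524.7 to 700.7 CPM in TG and 354.8 to 456.5 CPM in WT. Of 7 Paneth cell markers 3 were called lower. They were Mptx2, Mmp7 and Ang4, at log2 fold changes of -1.35 ± 0.20, -0.59 ± 0.15 and -0.57 ± 0.18 (SE, n = 4 each). Mptx2 had 5252 to 7579 CPM in TG and 9892 to 20050 CPM in WT. Lyz1, Defa24, Defa30 and Itln1 were not called, at log2 fold changes of -0.28 to 0.08. Of 6 enteroendocrine markers 4 were tested, with 1 called lower and a median log2 fold change of -1.85, and their summed level was 3.44 to 11.97 CPM in TG and 7.74 to 42.6 CPM in WT. Of 5 stem cell markers 1 was called in each direction. Goblet cell markers summed to 8557 to 11850 CPM in TG and 10760 to 12510 CPM in WT, and tuft cell markers to 19.5 to 62.5 and 21.2 to 45.4 CPM. The summed level of 12 immediate early genes, which are induced by cell isolation, was 533 to 730.5 CPM in TG and 425.9 to 714.2 CPM in WT, with 1 called in each direction. The summed level of 12 immune cell genes was 25.7 to 43.4 CPM in TG and 25.02 to 32.5 CPM in WT, to which Lyz2 gave a mean of 19.6 and 14.5 CPM, and Cd3g, Cd4, Csf1r and Il7r had 0 counts in all libraries. The part of these cells in the results was not tested.

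**Figure D2:**
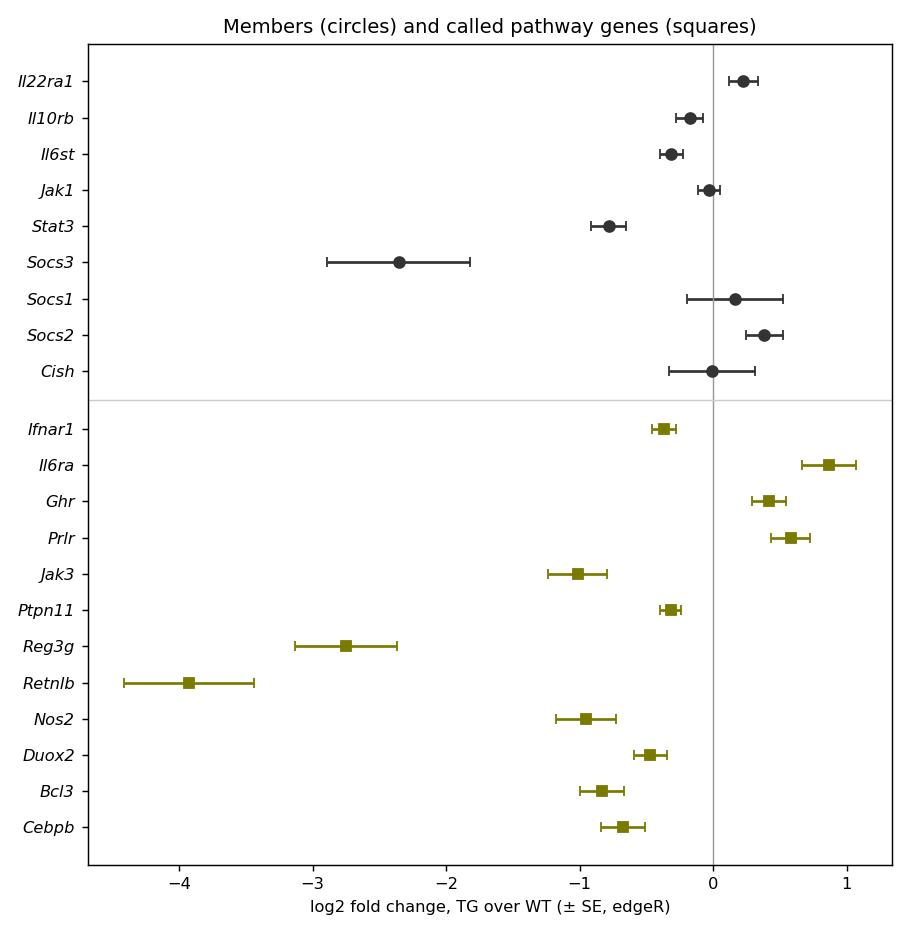
Log2 fold change, TG over WT, with its SE for the 9 tested members (circles, a description) and for the called genes of the pathway lists (squares, named by the rule and at most 6 a list). Socs3 at -2.35 lies with Reg3g and Retnlb on the far left, and Il6ra has the highest value, 0.87.

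Levels of different genes were compared as CPM per kilobase of exon. In WT the order of the means was Il22ra1 with 18.2 ± 2.91, Stat3 with 13.7 ± 1.92, Jak1 with 11.1 ± 0.714, Socs3 with 10.8 ± 6.75 and Il10rb with 7.24 ± 1.04 (SD, n = 4). Il6st with 3.31 ± 0.307, Socs2 with 2.25 ± 0.260, Cish with 0.824 ± 0.284, Socs1 with 0.216 ± 0.0389 and Osmr with 0.0470 ± 0.0556 followed (SD, n = 4). Il22ra1 and Stat3, Jak1 and Socs3, and Socs3 and Il10rb were neighbours whose WT ranges overlapped, and no other neighbours did. In TG, Socs3 held place 7 in place of 4, at 2.10 ± 0.314, below Il6st at 2.67 ± 0.0508 and Socs2 at 2.93 ± 0.596 (SD, n = 4), and Stat3 at 7.93 ± 1.47 stood below Jak1 at 10.8 ± 0.586. Only Socs2 and Il6st overlapped as neighbours there. The order above Cish depended on the length used. With the longest transcript of each gene, Stat3 led in WT with 21.4, followed by Jak1 with 19.4 and Il22ra1 with 18.2, and with the canonical transcript the first place was again Stat3, with 30.2 CPM per kilobase. Socs2 moved in WT from place 7 to place 6 with the longest transcript and place 5, at 13.5, with the canonical one. In TG with the canonical transcript, Socs2 held place 3 at 17.6 and Stat3 place 4 at 17.5.

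**Figure D3:**
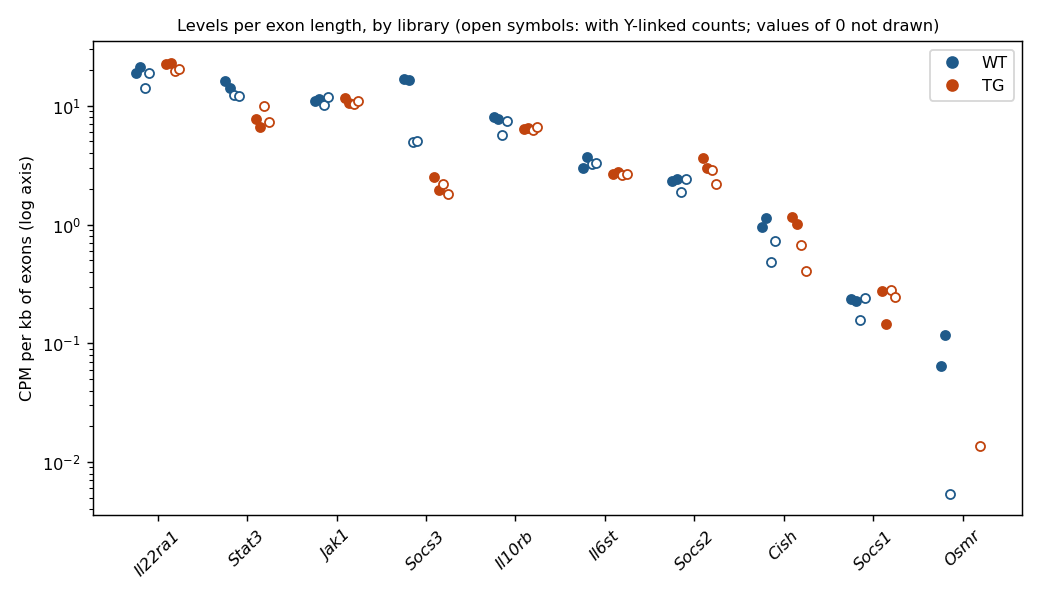
CPM per kilobase of exon (log axis) of the 10 members in order of their WT mean, with 1 circle a library, open where Y-linked counts were present. Values of 0 are not drawn. Socs3 spans 4.94 to 16.8 in WT and 1.79 to 2.51 in TG, while Jak1 stays between 10.2 and 11.9 in all libraries.

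The split by Y-linked counts was used to ask whether the members differed between these kinds of library, a measure that did not choose them. Of the 9 members tested, 0 were called by an edgeR term for Y-linked counts next to the group, as against 0.176% of all genes tested. At an unadjusted p below 0.05, edgeR had 4 of the members, Cish, Socs3, Socs2 and Il22ra1, and 694 of the 11929 genes. Cish came closest. It had 2.59 to 4.69 CPM in the 4 libraries with Y-linked counts and 6.08 to 7.45 CPM in the 4 without, ranges that did not overlap, as for 1.67% of all genes. Its log2 difference, with over without, was -0.89 ± 0.20 (SE, 4 libraries each, edgeR adjusted p = 0.196). DESeq2 called it (adjusted p = 0.0293), as did edgeR with no filter on low counts (adjusted p = 0.00351), 2 of 15 alternatives. Socs3 had a log2 difference of -1.09 ± 0.31 (SE, edgeR adjusted p = 0.596), from a mean of 33.6 CPM without to 12.4 CPM with Y-linked counts, and the remaining members had log2 differences between -0.27 and 0.07.

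The change between TG and WT was also compared between both kinds of library, with an interaction term that was called for 0.0251% of genes. Socs3 was among them, with an interaction of 1.58 ± 0.23 on the log2 scale (SE), which is a description here because earlier results had shown it. It was called in 6 of 15 alternatives, and not by limma voom, with total counts or with the filter of 1 CPM in 4 libraries. It was also not called without TG replicate 1, 2, 3 or 4, or without WT replicate 3 or 4 (edgeR adjusted p = 0.0644 to 0.510). For Stat3 the fold change was -1.07 ± 0.14 where Y-linked counts were absent and -0.49 ± 0.14 where they were present (SE, 2 libraries a group), and the interaction of 0.57 ± 0.22 was not called (edgeR adjusted p = 0.773). Il6st had -0.32 ± 0.15 and -0.30 ± 0.11 (SE). For the other tested members the edgeR adjusted p of the interaction were 0.933 to 0.997. Among the target genes, Retnlb had -4.57 ± 0.19 and -3.01 ± 0.28, and Bcl3 had -1.18 ± 0.15 and -0.42 ± 0.14 (SE), with interactions that were not called (edgeR adjusted p = 0.507 for both). Replicates 3 and 4 of each group were the libraries with Y-linked counts, and the part of these counts in the results was not tested.

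The genes whose profiles over the 8 libraries were nearest to that of Socs3 were sought by the root mean square difference of centred log2 CPM, among 11913 tested genes. They were Ndrg3 at 0.37, Slc16a3, the lactate exporter MCT4, at 0.40, Il18bp, a secreted inhibitor of IL-18, at 0.41, Col16a1 at 0.43, and Slc5a9, a sodium and sugar cotransporter, at 0.46. Ndrg3 had 31.1, 34.6, 39.3 and 24.6 CPM in TG and 178.6, 163.0, 96.8 and 97.4 CPM in WT. It thus shared both the gap between the groups and the higher level in WT replicates 1 and 2. The other 4 had ranges of 0.352 to 0.688, 1.06 to 2.65, 1.83 to 3.45 and 2.82 to 5.25 CPM in TG and 1.34 to 6.87, 5.28 to 13.2, 7.96 to 14.4 and 7.44 to 27.2 CPM in WT, in the same order. With the group means removed first, the 5 nearest genes were others, and 0 of the 5 were shared.

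**Figure D4:**
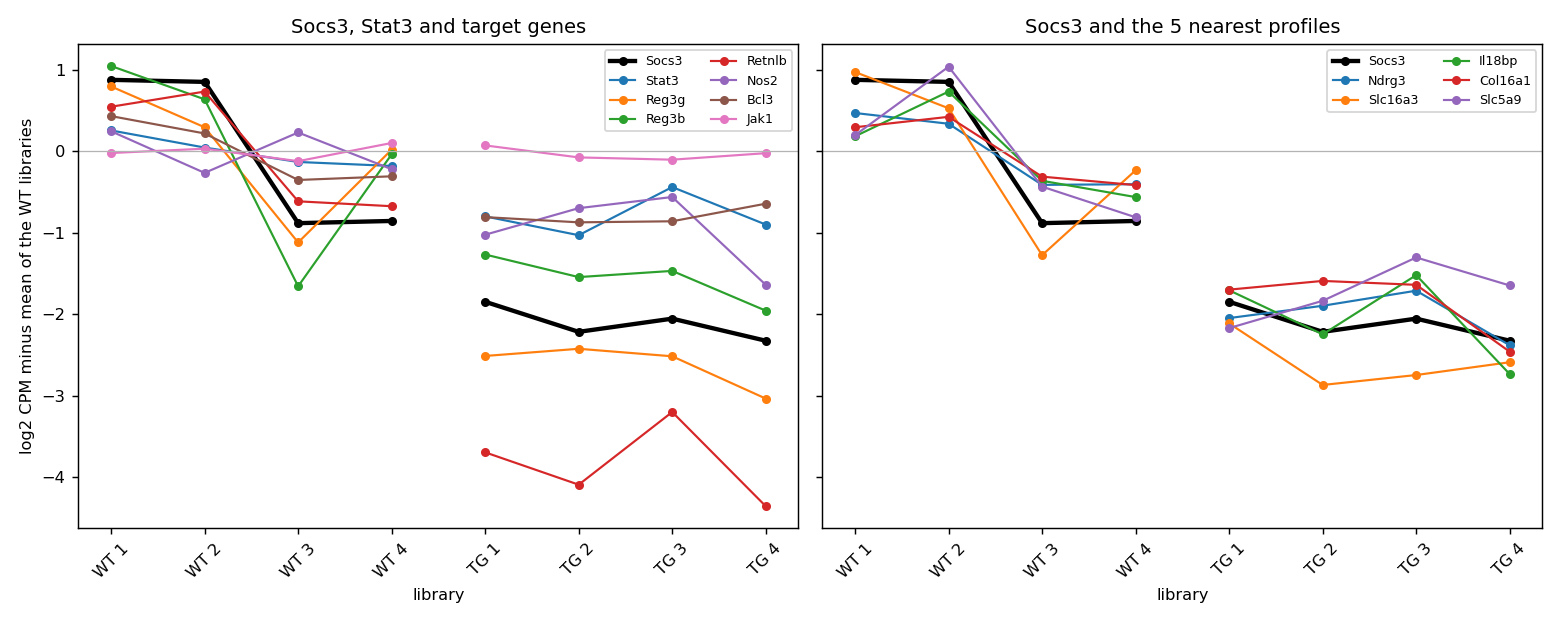
Log2 CPM minus the mean of the WT libraries, by library, for Socs3 with Stat3, Jak1 and target genes (left) and for Socs3 with the 5 nearest profiles (right). Socs3 is at 0.88 and 0.85 in WT replicates 1 and 2, at -0.88 and -0.85 in WT replicates 3 and 4, and between -2.32 and -1.85 in TG.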

How the data were processed

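Sequencing libraries were made from RNA of FACS-sorted Paneth cells with a stranded kit for mRNA. The values, as deposited, are raw counts in 1 table, with 55414 Ensembl IDs in rows and 8 libraries in columns, and 0 per-sample columns were left unused. The submitters' processing notes name FastQC 0.12.0, STAR 2.7.0a, DESeq2 and the build mm39. The counting tool, its strand setting, the annotation and the handling of shared reads of the deposited table were not stated in any source used here. The study describes STAR and Salmon steps with GENCODE for its reads, and does not tie them to this table.

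Symbols, positions and exon lengths were taken from GENCODE M39 on GRCm39, which matched 54749 IDs. The members and lists were chosen with earlier results of these data known. Counts were fitted on all genes with edgeR 4.0.16 in R 4.3.3 (TMM, filterByExpr by group, robust quasi-likelihood, Benjamini-Hochberg at 0.05), with the group as the only term, with a term for Y-linked counts, or with their interaction. SE was derived as the log2 fold change over the square root of its F statistic. These steps were tested on simulated data. Alternatives were limma 3.58.1 (voom, quality weights), DESeq2 1.42.0, RLE factors, total counts, scaling without the 28 alpha-defensin genes, other filters, a replicate block, a term for or fits within the classes of Y-linked counts, and leaving out each library. The canonical transcript length was added after the data were seen. Replicates of a group were checked for duplicates (chi-square per degree of freedom of at least 5.20). The study describes its sorts as from individual mice. The labels do not name the animal of each replicate, so p-values measure the spread between these samples.

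Named besides the members were, for each pathway list, up to 6 called genes with the smallest p and up to 3 abundant genes not called, and the 5 profiles nearest to Socs3 (log2 CPM with a prior count of 2). The values of 1 gene that this rule names are not reported here.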

Additional observations from a re-analysis of the deposited data

Results flagged for a closer look

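Within each group of 4 libraries, single libraries that stood apart were sought by the gap to its nearest neighbour as a share of the range, over 74 groups of values of the members and named genes. This gave 4, where chance gives about 3.7.

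In TG replicate 2, Il6st had 42.6 CPM, while its remaining TG values were 40.9 to 41.1 CPM. Osmr had 0.169 CPM in TG replicate 3, from 3 counts, and 0 in the others. For Il23a, WT replicate 2 had 0.0696 CPM and the rest of the group had 0. For Tyk2, WT replicate 1 had 27.8 CPM against a range of 34.5 to 34.9 CPM in the rest of its group.

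The difference between TG and WT in Socs3 was itself different between the libraries without and with Y-linked counts by an edgeR interaction term, with a value of 1.58 ± 0.23 on the log2 scale (SE). Over 15 alternatives the value was 1.41 to 1.78, and it was called in 6 of them. There were 2 libraries of each genotype on either side.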

How the results depend on the processing

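With total counts, 263 genes were lower in place of 1151, and 5 pathway genes in place of 14. The libraries without Y-linked counts gave 500 higher and 638 lower genes and 2 higher pathway genes, and those with them gave 113, 104 and 1, with 2 lower pathway genes and 1 lower member. Members called higher, 0 at first, became 1 with no filter, where it was Socs2, and 1 with the Y-linked term. Without 1 library, the genes higher in TG numbered 485 to 1045 and those lower 550 to 1183, with 1 to 4 higher and 10 to 18 lower pathway genes, and 0 to 1 higher and 1 to 4 lower members. Leaving out TG replicate 1 or TG replicate 2 lowered the numbers of genes called most. Without any 1 of TG replicates 1, 2 and 3 a single member was called lower. Genes with a Y-linked difference, 21 in number, became 53 with DESeq2, 11 with total counts and 145 with no filter, and 9 to 24 without 1 library, with 10, 13 and 9 without TG replicate 1, TG replicate 2 and WT replicate 3. Genes with an interaction, 3 in number, became 21 with DESeq2, 69 with no filter, and 0 with limma voom, total counts or the filter of 1 CPM in 4 libraries, and 0 to 45 without 1 library, the highest without WT replicate 2, with 684 at an unadjusted p below 0.05 by edgeR. The causes were not tested.

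Replicate numbers were not taken to pair the libraries. Same-numbered TG and WT libraries correlated, after removal of group means, at 0.08, 0.07, 0.29 and 0.23 over genes, and 5 of 8 libraries correlated best with their own number. The fit with the replicate block gave 1039 higher and 1164 lower genes. In it, 4 pathway genes were higher and 13 lower, and 3 members were lower. Dmbt1 was called with the replicate block (edgeR adjusted p = 0.0201). For single genes, 857 of 932 values stayed on their side of the threshold or, for values given with no test, within the spread whatever the call. Of the others, 36 lost a call, 19 gained one and 20 moved further. The TG over WT values of the members were among those with no test. The lost calls of Socs3, Il6st and Stat3 in that contrast are thus not in the 36. No called gene changed sign under these alternatives.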
